A study of Mus musculus with 15 samples.

Results

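Livers of mice kept on a high-fat diet and labelled with the number of an agent against Stk25 (group HFD-337, animals 23, 26 and 27) were compared with livers of the high-fat diet group HFD-NS (animals 12, 13 and 16), over all genes. The labels alone assign these 6 libraries, of 15 in the series, to their groups. The series concerns mice with diet-induced metabolic dysfunction-associated steatotic liver disease, given resmetirom (group HFD-Res) or treated by STK25 knockdown with Gc337, and its title names an antisense oligonucleotide. Its other groups are SD-NS and HFD-338, each also with 3 animals. The labels give the tissue as liver and spell out neither SD nor NS nor the number in HFD-338. Strain, sex, age, dose and duration are not given in the sources used here. No group is labelled as a control agent, so effects of lower Stk25 and other effects of the agent cannot be told apart in this comparison.

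STK25 is a serine/threonine kinase of the germinal center kinase family, with STK24 and STK26 as its closest relatives. In liver cells it sits on lipid droplets, and loss of STK25 is known to lower fat storage in hepatocytes and in livers of mice on a high-fat diet. Antisense oligonucleotides pair with a target RNA and recruit RNase H, which cuts the RNA of the hybrid. Hepatocytes and liver sinusoidal endothelial cells both take up such oligonucleotides from blood.

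Levels below are CPM, read counts relative to library size, scaled by TMM, a factor that makes libraries of different composition comparable. Where 3 values are listed, they stand for animals 12, 13 and 16 in HFD-NS and for 23, 26 and 27 in HFD-337. A gene was called, and is said to have risen or fallen, at a Benjamini-Hochberg adjusted p under 0.05 over 13189 genes tested with edgeR's quasi-likelihood test. A log2 fold change of 1 is a doubling, and SE is its standard error. Libraries held 8030651 to 9797743 counts in HFD-NS and 4681937 to 8995337 in HFD-337. Spearman correlations across genes were 0.986 to 0.988 within HFD-NS, 0.973 to 0.981 within HFD-337 and 0.927 to 0.955 between the groups. The first principal component of the 6 libraries held 61.8% of the variance and separated the groups, and the second (16.6%) separated HFD-337 animals 23 and 27. The hepatocyte gene Alb, which encodes serum albumin, took 5.76% to 9.53% of counts in each of the 6 libraries. Nothing in the labels says more of the animals than their numbers. The p-values set each difference against the spread between livers within groups, estimated over all 15 libraries in 5 groups.

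Stk25 (chromosome 1, 93548473 to 93563449 in mm39) was the targeted gene and fell to 37.6% of the HFD-NS mean. Its level was 48.6, 43.7 and 47.3 CPM in HFD-NS and 19.1, 18.8 and 14.6 in HFD-337, and the groups did not overlap (log2 fold change -1.40 with SE 0.115, adjusted p = 3.8e-08). The counts behind these values were 1217 reads in HFD-NS and 332 in HFD-337. Farp2, a guanine nucleotide exchange factor whose exons share 23.1% of the exon length of Stk25, was at 23, 23.6 and 21.3 CPM in HFD-NS and 14.4, 14.8 and 12.8 in HFD-337 (log2 fold change -0.69 with SE 0.12, adjusted p = 0.000121). Reads in the shared exons count for both genes, so neither value is independent of the other. Stk24, the paralog, fell less, from 22, 22.5 and 20.6 to 11.2, 15.1 and 15.2 CPM (log2 fold change -0.63 with SE 0.14, adjusted p = 0.00103), and was at 63.9% of the HFD-NS mean. Stk26, the other paralog, was too low to be tested, at 0.745 CPM or less in every library of both groups.

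**Figure D1:**
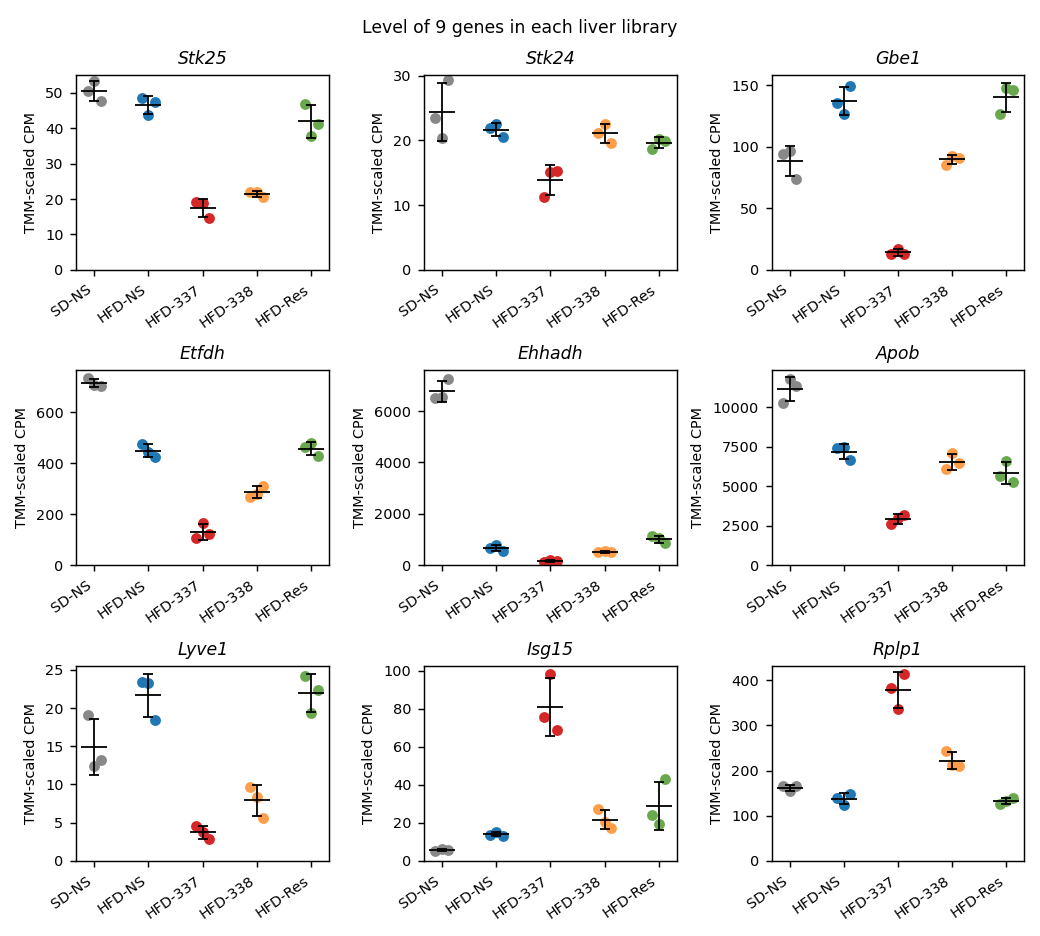
TMM-scaled CPM of 9 genes in each of the 15 liver libraries, with 1 point per animal, the group mean as a horizontal line and 1 SD as the bar. In HFD-337 the points of Stk25, Stk24, Gbe1, Etfdh, Ehhadh, Apob and Lyve1 lie under all HFD-NS points, and those of Isg15 and Rplp1 above them.

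STK25 works within STRIPAK, a complex that joins striatin scaffolds, the phosphatase PP2A and germinal center kinases. Of 17 tested genes in a list of Stk25, Farp2, relatives of Stk25 and STRIPAK subunits, 2 rose and 9 fell. Among all genes tested 24.4% rose and 22.8% fell. The falls include Stk25, the targeted gene, and Farp2, which shares reads with it, so the count in part restates the fall of Stk25. The median log2 fold change of the list was -0.31, beside 0.028 for all genes. Cttnbp2nl, a STRIPAK subunit, fell from 5.02, 6.7 and 5.48 to 2.56, 1.73 and 2.64 CPM (log2 fold change -1.35 with SE 0.292, adjusted p = 0.000844). Slmap, which links the complex to Hippo signalling, fell from 80.3, 86.2 and 77.4 to 50.8, 43.6 and 55.6 CPM (log2 fold change -0.71 with SE 0.104, adjusted p = 2.04e-05). The scaffold gene Strn4 moved the other way, from 22, 19.6 and 19.4 to 25.6, 30.9 and 34.1 CPM (log2 fold change 0.57 with SE 0.124, adjusted p = 0.000903). Neither Strn, Strn3 nor Mob4 passed the test.

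In all, 6220 of 13189 genes (47.2%) were called, 3214 higher (24.4%) and 3006 lower (22.8%) in HFD-337. Of these, 962 were at least 2-fold higher (7.29% of genes tested) and 912 at least 2-fold lower (6.91%), together 14.2%, and 123 and 156 passed 4-fold. The 3 libraries of HFD-337 lay wholly above or below the 3 of HFD-NS in 6958 genes (52.8%). Fitted log2 fold changes ran from -1.25 at the 5th percentile to 1.27 at the 95th, and 1874 of the 6220 calls passed 2-fold. In limma on log2(TPM + 1), which changed the scaling, the gene filter, the pseudocount and the test together, 2244 genes were higher and 3613 lower, and the median of all genes moved by -0.143 on the log2 scale. Calls higher in HFD-337 were 51.7% of all calls in the edgeR fit and 38.3% in that one, and which of the changed choices moved them was not tested. No called gene changed direction under any scaling or test tried.

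**Figure D2:**
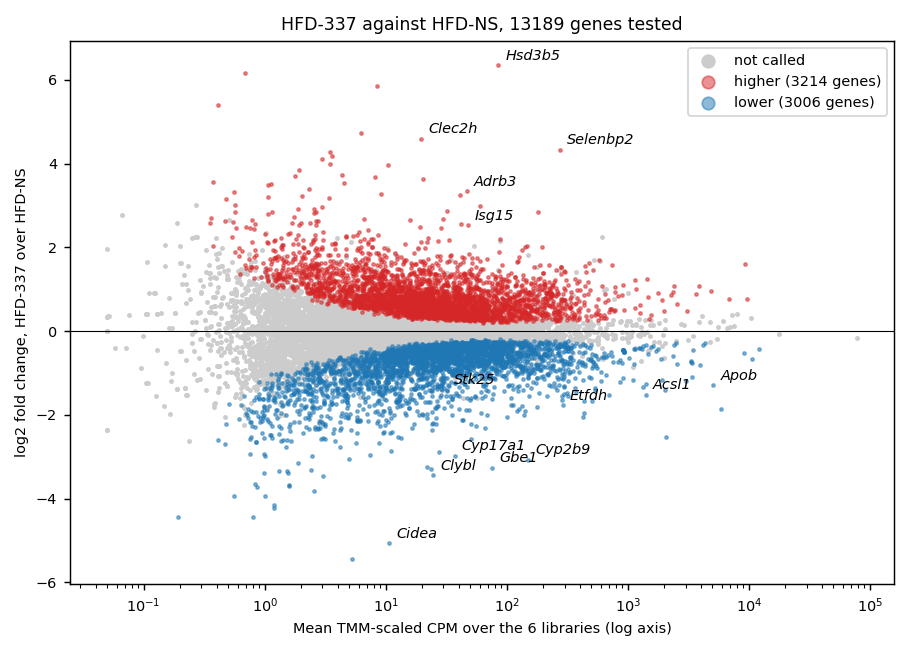
Fitted log2 fold change of HFD-337 over HFD-NS (vertical axis) against the mean TMM-scaled CPM of the 6 libraries (horizontal log axis), with 1 point per tested gene, coloured where called. The 3214 higher and 3006 lower genes cover the whole range of levels, and Gbe1, Clybl and Adrb3 stand far from 0 at moderate levels.

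Called falls were more frequent among genes with a long genomic span, and called rises among short genes. Of 3544 genes spanning under 10 kb from first to last exon, 40.0% rose and 9.88% fell, with a median log2 fold change of 0.34. Of 539 genes spanning at least 200 kb, 6.31% rose and 46.4% fell, with a median of -0.57. Each step between lay in order: 22.4% rose and 21.9% fell at 10 to 50 kb, 14.4% and 34.2% at 50 to 100 kb, and 9.14% and 40.6% at 100 to 200 kb. The longest class was lower in each HFD-337 library on its own, with medians of -0.43, -0.48 and -0.53 against the HFD-NS mean. The 3 HFD-NS libraries lay between -0.03 and 0.01, but each is part of that mean, which draws their values toward 0. Among genes with 2 to 4 kb of summed exon length, 12.4% fell where the span was under 10 kb and 50.5% where it was at least 200 kb. By summed exon length, 48.5% of genes under 1 kb rose and 5.81% fell, and 15.4% of genes of at least 4 kb rose and 31.5% fell. In the longest span class, HFD-338 had 21.2% of genes higher and 26.3% lower than HFD-NS, beside 18.9% and 17.9% of all genes. HFD-Res had 5.57% higher and 7.24% lower, beside 6.22% and 6.74% of all genes. Those comparisons use the same HFD-NS libraries, and the difference in trend was not tested. The median span is given beside the counts of some gene groups below, and the part of span in any group's change was not tested.

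**Figure D3:**
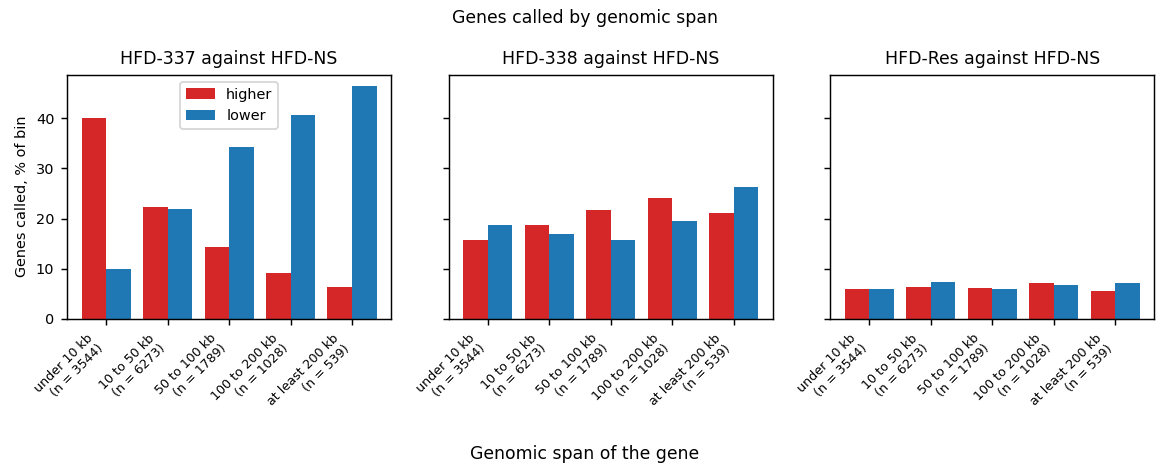
Share of tested genes called higher (red) or lower (blue), in percent, for 5 classes of genomic span in kb, for HFD-337, HFD-338 and HFD-Res, each against the same HFD-NS libraries. In HFD-337 the higher share falls from 40.0% to 6.31% and the lower share climbs from 9.88% to 46.4% with span.

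Among the largest falls were those of metabolic enzymes and several long genes. Gbe1, the glycogen branching enzyme (chromosome 16, 70110837 to 70366608), spans 256 kb and was at 135, 127 and 149 CPM in HFD-NS and 12.6, 17.1 and 12.6 in HFD-337, or 10.3% of the HFD-NS mean (log2 fold change -3.26 with SE 0.133, adjusted p = 1.13e-11). Clybl encodes a citramalyl-CoA lyase of mitochondria tied to cobalamin metabolism. It spans 221 kb and fell from 43.7, 47.7 and 45.1 to 5.12, 5.07 and 1.83 CPM (log2 fold change -3.44 with SE 0.198, adjusted p = 1.89e-09). Abhd2, a lipid hydrolase, fell from 45.5, 51.3 and 32.6 to 3.94, 5.19 and 3.65 CPM (log2 fold change -3.29 with SE 0.339, adjusted p = 6.49e-06). In each of these genes the highest HFD-337 library was more than 6-fold below the lowest HFD-NS library. Slc25a21, a mitochondrial oxodicarboxylate carrier spanning 485 kb, fell from 19.6, 18.1 and 21.3 to 2.76, 3.11 and 2.03 CPM (log2 fold change -2.86 with SE 0.27, adjusted p = 2.01e-07), and 6.83% of its exon length is shared with Pax9. Megf9, a membrane protein with EGF-like domains, fell from 12.7, 14.2 and 13.1 to 1.38, 2.07 and 1.42 CPM, Myo1d, an unconventional myosin, from 16.5, 15.1 and 14.4 to 1.38, 3.8 and 1.22, and Mob1a, a cofactor of Hippo pathway kinases, from 9.93, 11.3 and 8.43 to 0.984, 1.96 and 1.42. Their log2 fold changes were -2.96, -2.68 and -2.67, with adjusted p of 3.8e-08, 1.11e-06 and 4.17e-07.

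Other large falls, some of them larger by fitted fold change, included genes that varied among HFD-NS livers. Cidea, a lipid droplet fusion protein that mouse liver makes when fat accumulates, was at 43.1, 4.1 and 15.1 CPM in HFD-NS and 1.77, 0.115 and 0.203 in HFD-337 (log2 fold change -5.07 with SE 1.1, adjusted p = 0.00285), a call lost with limma-voom (adjusted p = 0.072). Cyp2b9, a cytochrome P450 more abundant in female liver, fell from 151, 464 and 192 to 30.9, 59.7 and 1.01 CPM (log2 fold change -3.07 with SE 0.803, adjusted p = 0.00951), a call lost in a fit of the 2 groups alone (adjusted p = 0.105). Cyp2b13, a close copy, was at 1.17, 27.4 and 2.21 CPM in HFD-NS and 0.591, 0.115 and 0 in HFD-337 (log2 fold change -5.44, adjusted p = 0.0161). That call was lost with limma-voom (0.166) and without HFD-337 replicate 26 (0.0701) or 27 (0.0507). Reads of such copies may be split between them, so their single values are uncertain. Cyp17a1, the steroid 17-alpha-hydroxylase, fell from 52, 58.4 and 88.2 to 7.48, 12.8 and 3.45 CPM (log2 fold change -2.97 with SE 0.306, adjusted p = 8e-06). Acot3, a peroxisomal acyl-CoA thioesterase, fell from 34.4, 67 and 44.4 to 10, 7.49 and 1.83 CPM (log2 fold change -2.87 with SE 0.489, adjusted p = 0.000655).

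Among the largest rises were 2 neighbours on chromosome 4. Dnaic1, a dynein chain of motile cilia (chromosome 4, 41569794 to 41638158), was at 0.467, 0.124 and 0.211 CPM in HFD-NS and 8.27, 14.4 and 27.4 in HFD-337 (log2 fold change 5.85 with SE 0.689, adjusted p = 1.01e-05). Enho, which encodes the secreted peptide adropin (chromosome 4, 41638144 to 41640302), was at 1.87, 3.72 and 3.48 CPM in HFD-NS and 22.2, 40.7 and 50.1 in HFD-337 (log2 fold change 3.63 with SE 0.306, adjusted p = 3.47e-07). The exons of both genes overlap over only 1.2% of the length of Enho. Adrb3, the beta-3 adrenergic receptor, was at 7.36, 6.58 and 11 CPM in HFD-NS and 94.5, 68.9 and 92.1 in HFD-337 (log2 fold change 3.34 with SE 0.204, adjusted p = 5.84e-09). Cndp1, a carnosine dipeptidase, was at 2.57, 0.621 and 1.9 CPM in HFD-NS and 14.4, 22.6 and 12.8 in HFD-337 (log2 fold change 3.28 with SE 0.343, adjusted p = 5.08e-07), and Clec2h, a C-type lectin, at 1.05, 0.372 and 3.06 in HFD-NS and 26.2, 46.6 and 40.6 in HFD-337 (log2 fold change 4.60 with SE 0.493, adjusted p = 8.98e-06). In all of these genes the lowest HFD-337 library was above the highest HFD-NS library by more than 4-fold.

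Hsd3b5 and Selenbp2, whose liver expression is higher in male than in female mice, rose most in animal 27. Hsd3b5, a steroid-metabolising dehydrogenase, was at 2.57, 0.869 and 2.53 CPM in HFD-NS and 68.7, 42.3 and 390.5 in HFD-337 (log2 fold change 6.34 with SE 1.05, adjusted p = 0.000614). Selenbp2, a selenium-binding protein with a near-identical copy, was at 49.6, 7.82 and 19.9 CPM in HFD-NS and 193, 96.8 and 1270.3 in HFD-337 (log2 fold change 4.33 with SE 1.16, adjusted p = 0.011), a call lost in a fit of the 2 groups alone (adjusted p = 0.0738). Prtn3, a protease of neutrophil granules, was at 0.35, 0.869 and 0.105 CPM in HFD-NS and 26.2, 1.27 and 8.93 in HFD-337, highest in animal 23 (log2 fold change 4.73 with SE 1.25, adjusted p = 0.0115). The small nucleolar RNAs Snord118 and Snord13, which act in the processing of ribosomal RNA, also rose: Snord118 from 0.934, 1.86 and 0.949 to 30.5, 16 and 12.8 CPM (log2 fold change 3.98 with SE 0.379, adjusted p = 4.12e-07) and Snord13 from 0.35, 1.86 and 1.26 to 27.2, 10.6 and 7.51 (log2 fold change 3.67 with SE 0.501, adjusted p = 3.16e-05). Both are RNAs without a poly(A) tail in their mature form, in libraries made from polyadenylated RNA. Gbp11, a guanylate-binding GTPase from a family of close copies, was at 14.5, 10.3 and 14.7 CPM in HFD-NS and 105, 47.8 and 167 in HFD-337 (log2 fold change 3 with SE 0.448, adjusted p = 0.000259). Cdh1, the epithelial cadherin, was at 10.9, 6.08 and 5.9 CPM in HFD-NS and 50.2, 45.5 and 73.3 in HFD-337 (log2 fold change 2.88 with SE 0.288, adjusted p = 5.11e-06).

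**Figure D4:**
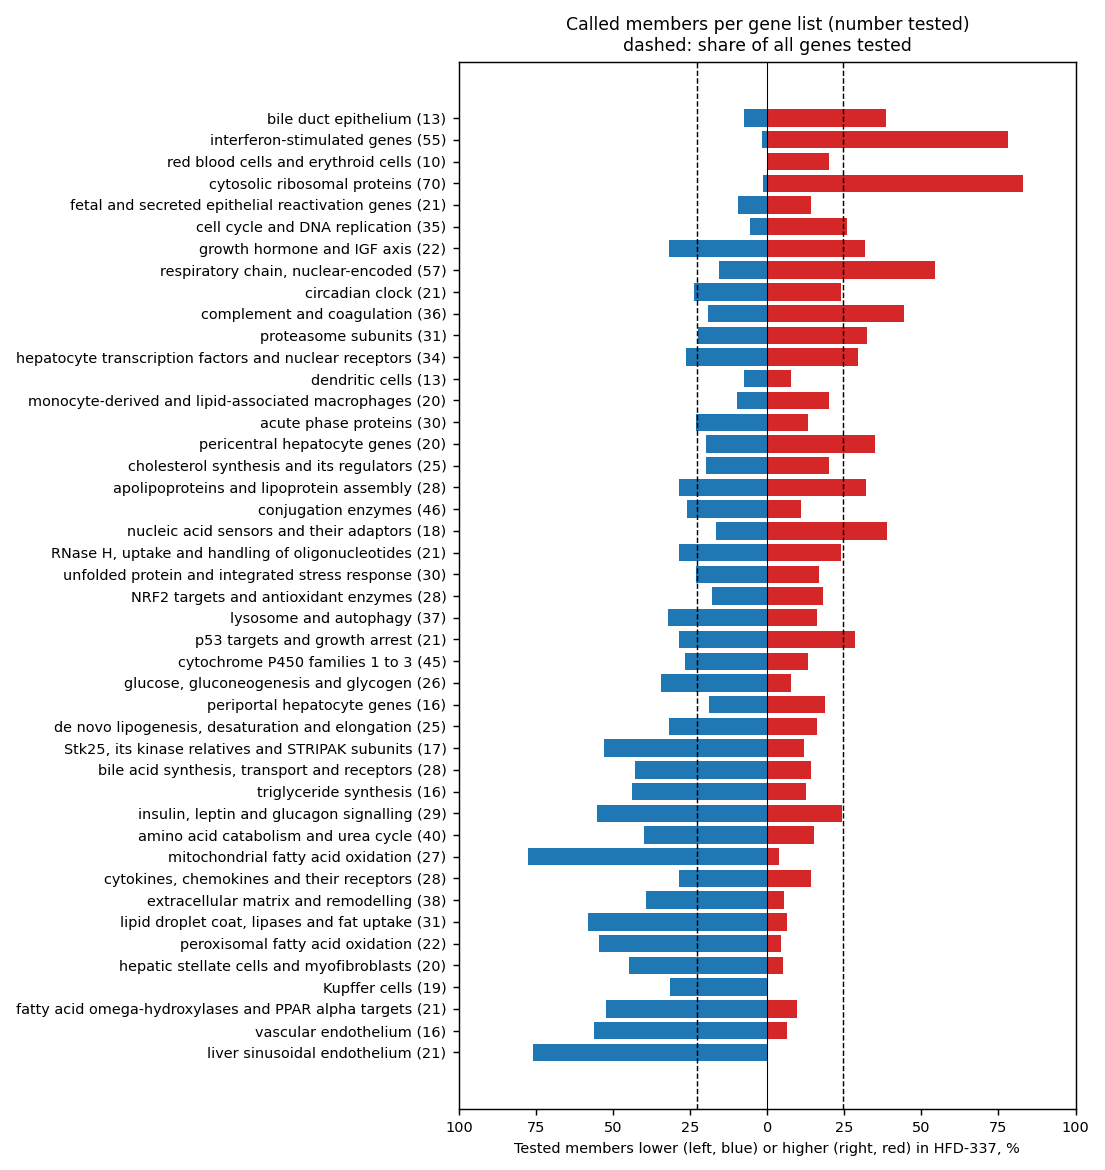
Share of tested members called higher (red, right) or lower (blue, left) in HFD-337 against HFD-NS, in percent, for gene lists with at least 10 tested members (number tested in parentheses), ordered by median log2 fold change. Dashed lines give the share among all genes tested, 24.4% higher and 22.8% lower, which the ribosomal protein and interferon-stimulated lists pass on the right and the sinusoidal endothelium and mitochondrial fatty acid oxidation lists on the left.

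Genes that burn fatty acids were lower in HFD-337. Their list medians were negative in HFD-338 against HFD-NS too, as given in the comparison with that group below. Mitochondrial beta-oxidation shortens acyl-CoA step by step and hands electrons to the respiratory chain, and PPAR alpha is the nuclear receptor that switches on much of this programme in hepatocytes. Of 27 mitochondrial oxidation genes tested, 21 fell and 1 rose, with a median log2 fold change of -0.43 and a median span of 28.1 kb. Of the 19 members spanning 10 to 50 kb, 15 fell (78.9%), where 21.9% of all genes of that span did. Etfdh, which passes electrons from acyl-CoA dehydrogenases to ubiquinone, fell from 477, 445 and 426 to 106, 165 and 122 CPM (log2 fold change -1.77 with SE 0.128, adjusted p = 1.03e-08). Acsl1, which activates long-chain fatty acids to acyl-CoA, fell from 2590.3, 1719 and 1942 to 564, 753 and 864 CPM (log2 fold change -1.52 with SE 0.163, adjusted p = 7.72e-07). Acadm, the medium-chain acyl-CoA dehydrogenase, fell from 778, 780.5 and 745 to 286, 369.5 and 241 CPM (log2 fold change -1.36 with SE 0.133, adjusted p = 2.53e-07). Acad11, another acyl-CoA dehydrogenase, fell from 477, 484 and 459 to 133, 184 and 170.1 CPM (log2 fold change -1.54 with SE 0.111, adjusted p = 8.84e-09). Cpt1a, the gate for long-chain acyl groups into mitochondria, fell less, from 544, 638 and 559 to 381, 385 and 323 CPM (log2 fold change -0.68 with SE 0.118, adjusted p = 0.000125). Etfb, a subunit of the electron-transferring flavoprotein that feeds Etfdh, was the 1 member that rose, from 285, 286 and 328 to 463, 519.7 and 499.7 CPM (log2 fold change 0.72 with SE 0.0962, adjusted p = 7.55e-06). In each gene named here the groups did not overlap.

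Ketone body and peroxisomal genes also fell in part. Of 7 ketone body genes tested, 4 fell and none rose (median log2 fold change -0.66). Acat1, a thiolase of the pathway, fell from 736, 651 and 686 to 415, 497 and 399 CPM (log2 fold change -0.66 with SE 0.104, adjusted p = 4.31e-05). Of 22 peroxisomal oxidation genes tested, 12 fell and 1 rose (median -0.63), and 9 of the falls were at least 2-fold. Ehhadh, the bifunctional enzyme of peroxisomal beta-oxidation, was at 688, 781 and 571 CPM in HFD-NS and 127, 195 and 173 in HFD-337 (log2 fold change -2.04 with SE 0.152, adjusted p = 1.48e-08). Amacr, the racemase for branched-chain acids, was the 1 that rose (log2 fold change 0.45, adjusted p = 0.000928).

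Of 21 fatty acid omega-hydroxylases and other PPAR alpha targets tested, 11 fell and 2 rose (median log2 fold change -0.98). Ppara itself fell from 348, 432 and 420.3 to 197, 195 and 151 CPM (log2 fold change -1.14 with SE 0.118, adjusted p = 4.72e-07). Cyp4a14, an omega-hydroxylase from a family of close copies, was at 3132, 4106 and 3362 CPM in HFD-NS and 419, 1149 and 275 in HFD-337 (log2 fold change -2.52 with SE 0.416, adjusted p = 0.000478), with animal 26 the highest of its group. Aldh3a2, a fatty aldehyde dehydrogenase, fell from 821, 778 and 726 to 320.2, 283 and 133 CPM (log2 fold change -1.66 with SE 0.229, adjusted p = 4.85e-05). Vldlr, the very-low-density lipoprotein receptor, fell from 11, 22.1 and 12.8 to 2.17, 5.65 and 0.609 CPM (log2 fold change -2.26 with SE 0.475, adjusted p = 0.0014). Creb3l3, a liver transcription factor that acts with PPAR alpha, rose from 306, 329 and 326 to 434, 475 and 464 CPM (log2 fold change 0.52 with SE 0.0899, adjusted p = 0.000121). Fgf21, a hormone under PPAR alpha control, was at 12.4, 9.44 and 5.48 CPM in HFD-NS and 5.71, 2.65 and 0.812 in HFD-337 and did not pass (adjusted p = 0.0501), although it did under some alternatives, such as DESeq2 (0.0135). In SD-NS, the group without the high-fat label, Ehhadh stood at 6496, 6552 and 7237 CPM and Acsl1 at 4067, 4176 and 3604, above HFD-NS and HFD-337. Feeding state at collection is not given in the sources used here.

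**Figure D5:**
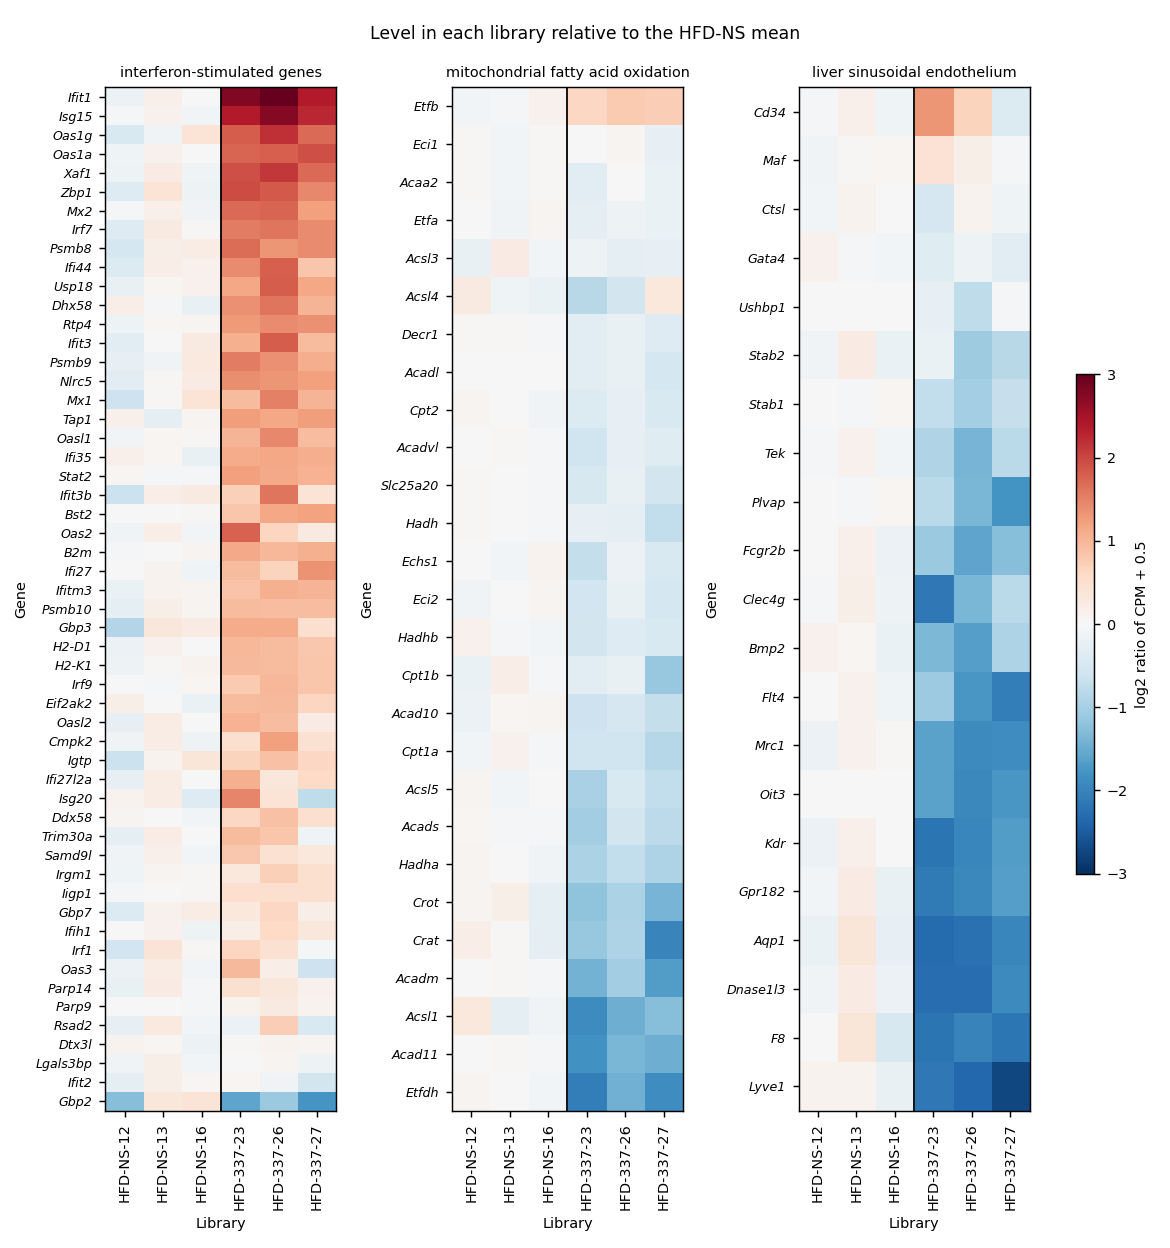
Log2 ratio of each library's TMM-scaled CPM (with 0.5 added) to the HFD-NS mean, for tested members of 3 lists, with 1 interferon-stimulated gene not drawn: interferon-stimulated genes, mitochondrial fatty acid oxidation and liver sinusoidal endothelium (rows, ordered by HFD-337 level; columns, the 6 libraries). Red is higher and blue lower, with HFD-NS on the left of each black line, and the 3 HFD-337 columns share a colour in most rows.

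Genes of fat synthesis moved in both directions. Of 25 genes of de novo lipogenesis, desaturation and elongation tested, 8 fell and 4 rose (median -0.25), and 5 fell without HFD-NS replicate 12 or 16. Me1, the malic enzyme that supplies NADPH, fell from 128, 97.1 and 102 to 29.1, 32.6 and 19.5 CPM (log2 fold change -1.99 with SE 0.178, adjusted p = 3.47e-07). Elovl5, an elongase of polyunsaturated fatty acids, fell from 1237, 926 and 939 to 329.8, 429 and 316 CPM (log2 fold change -1.53 with SE 0.145, adjusted p = 1.97e-07). Mlxipl, which encodes the carbohydrate-responsive factor ChREBP, rose from 228, 187 and 241 to 534, 492 and 524 CPM (log2 fold change 1.24 with SE 0.132, adjusted p = 6.27e-07). Nr1h3, the liver X receptor alpha, rose too (log2 fold change 0.64, adjusted p = 8.36e-05). Fasn, the fatty acid synthase, was at 86.6, 52.5 and 69 CPM in HFD-NS and 69.1, 77.6 and 97 in HFD-337 and did not pass (adjusted p = 0.356). Srebf1, the sterol regulatory factor of lipogenesis, was at 17.6, 26.4 and 42 CPM in HFD-NS and 33.5, 46 and 49.9 in HFD-337 (adjusted p = 0.0972), and passed with limma-voom (0.0445) and without HFD-NS replicate 16 (0.00349). Scd1, the stearoyl-CoA desaturase, varied widely, at 10985, 5140.3 and 11685 CPM in HFD-NS and 4001, 2839 and 787 in HFD-337 (log2 fold change -1.87 with SE 0.581, adjusted p = 0.0225). That call was lost in a fit of the 2 groups alone (0.086) and without HFD-NS replicate 12 (0.058) or 16 (0.0631) or HFD-337 replicate 26 (0.0517).

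Storage and breakdown of triglyceride were represented by 16 synthesis genes, of which 7 fell and 2 rose, and 31 genes of droplet coats, lipases and fat uptake, of which 18 fell and 2 rose. The median log2 fold changes of these lists were -0.34 and -0.63. Plin2, the main droplet coat protein of liver, fell from 793, 807 and 562 to 447, 432 and 291 CPM (log2 fold change -0.89 with SE 0.17, adjusted p = 0.000387). Fitm2, which packages triglyceride into droplets, fell from 30.6, 21 and 18.8 to 6.89, 8.41 and 5.68 CPM (log2 fold change -1.71 with SE 0.186, adjusted p = 8.32e-07). Cd36, a fatty acid transporter, fell from 472, 467 and 362 to 187, 157 and 73.3 CPM (log2 fold change -1.64 with SE 0.248, adjusted p = 0.000152), with animal 27 lowest. Pnpla2, the adipose triglyceride lipase, fell from 48.2, 49.9 and 51.5 to 26.2, 31.2 and 28 CPM (log2 fold change -0.80 with SE 0.102, adjusted p = 4.44e-06). Lpin2, a phosphatidate phosphatase, fell from 319, 389 and 303 to 159, 203 and 162 CPM (log2 fold change -0.95 with SE 0.158, adjusted p = 0.000107), whereas the acyltransferases Agpat1 and Dgat1 rose (log2 fold changes 1.14 and 0.59, adjusted p = 1.03e-05 and 0.000833). Dgat2, the other final acyltransferase, was at 303 to 401 CPM in HFD-NS and 208 to 304 in HFD-337 (log2 fold change -0.39, adjusted p = 0.0195). Its call was lost in a fit of the 2 groups alone (0.0728) and without replicate 16 of HFD-NS (0.117) or 23 of HFD-337 (0.107). Cidec, a droplet fusion protein, was at 74.8, 46.3 and 40.6 CPM in HFD-NS and 61.6, 25 and 7.92 in HFD-337 and did not pass (adjusted p = 0.255), but did without HFD-337 replicate 23 (0.0175).

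Of 28 genes of apolipoproteins and lipoprotein assembly tested, 9 rose (32.1%) and 8 fell (28.6%), beside 24.4% and 22.8% of all genes tested. The median log2 fold change of the list, -0.03, lay between -0.17 and 0.04 over all settings. Apob, which wraps each very-low-density lipoprotein particle, fell from 7456, 7470.1 and 6651 to 2627, 2981 and 3212 CPM (log2 fold change -1.29 with SE 0.119, adjusted p = 1.44e-07). Mttp, which loads lipid onto apolipoprotein B, fell from 436, 366 and 397 to 228, 263 and 290.2 CPM (log2 fold change -0.62 with SE 0.101, adjusted p = 6.31e-05). Mia2, a cargo factor for lipoprotein export, fell from 433, 446 and 454 to 157, 232 and 197 CPM (log2 fold change -1.18 with SE 0.115, adjusted p = 2.36e-07). Angptl8, an inhibitor of lipoprotein lipase made after feeding, rose from 20.3, 26.6 and 17.3 to 60.6, 51.9 and 118 CPM (log2 fold change 1.84 with SE 0.268, adjusted p = 0.000102). Apoc2 rose too (log2 fold change 1.17), but 60.0% of its exon length is shared with another gene model. Split by length, 7 of the 14 members under 10 kb rose and none fell, and of the 5 members of 50 kb or more none rose and 4 fell. Among all genes under 10 kb, 40.0% rose and 9.88% fell. In the span classes of all genes from 50 kb up, 6.31% to 14.4% rose and 34.2% to 46.4% fell. The split thus has the direction of the trend over all genes. Of 25 cholesterol synthesis genes and regulators, 5 rose and 5 fell, which is near the background. Between 2 and 3 rose without HFD-NS animal 13 or 16 or HFD-337 animal 26 or 27, and 3 fell without HFD-NS animal 12 or HFD-337 animal 23. Ebp, a sterol isomerase of the pathway, rose from 225, 192 and 234 to 333, 357 and 349 CPM (log2 fold change 0.67 with SE 0.1, adjusted p = 2.37e-05).

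Of 28 bile acid genes tested, 12 fell and 4 rose (median log2 fold change -0.33, median span 37.1 kb). Cyp8b1, which sets the share of cholic acid, fell from 501, 367 and 413 to 133, 192 and 109 CPM (log2 fold change -1.56 with SE 0.251, adjusted p = 0.000245). Abcc3, a basolateral exporter of conjugates, fell from 327, 370.4 and 328 to 151, 169 and 116 CPM (log2 fold change -1.23 with SE 0.12, adjusted p = 2.5e-07). Klb, the co-receptor of FGF15 and FGF21, fell from 23.6, 24.1 and 24.6 to 10.8, 10.3 and 14.6 CPM (log2 fold change -1.04 with SE 0.156, adjusted p = 2.67e-05), and its partner receptor Fgfr4 rose from 22.8, 20.5 and 23.1 to 32.7, 43.8 and 47.9 (log2 fold change 0.91 with SE 0.135, adjusted p = 2.44e-05). Nr1h4, the bile acid receptor FXR, rose as well (log2 fold change 0.44, adjusted p = 0.00118). Abcb11, the bile salt export pump, fell from 524, 506 and 470.1 to 275, 366 and 398 CPM (log2 fold change -0.53 with SE 0.126, adjusted p = 0.00192). Cyp7a1, the rate-limiting enzyme of bile acid synthesis, was at 255, 149.7 and 189 CPM in HFD-NS and 102, 133 and 102 in HFD-337. The groups did not overlap, but the difference passed only in a fit of the 2 groups alone (adjusted p = 0.185 in the fit of all groups and 0.0108 in that of 2).

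In glucose metabolism 9 of 26 genes fell and 2 rose (median -0.23). Those shares were 34.6% and 7.69%, beside 22.8% and 24.4% of all genes tested. Pcx, pyruvate carboxylase, the entry to gluconeogenesis, fell from 441, 415 and 421 to 162, 174 and 175 CPM (log2 fold change -1.32 with SE 0.0808, adjusted p = 2.14e-09). Ppp1r3c, a glycogen-targeting phosphatase subunit, fell from 82.6, 104 and 78.2 to 30.1, 59.6 and 30 CPM (log2 fold change -1.12 with SE 0.234, adjusted p = 0.00168). Gckr, a regulatory protein of hepatic glucose uptake, rose from 179.9, 166 and 205 to 332, 359 and 301 CPM (log2 fold change 0.85 with SE 0.116, adjusted p = 9.59e-06). Pck1, which makes phosphoenolpyruvate, was at 1354, 1737 and 1666 CPM in HFD-NS and 306, 1328 and 1279 in HFD-337, where animal 23 alone was far lower. Its difference did not pass (adjusted p = 0.182), although it did with limma-voom (0.0451).

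Of 40 genes of amino acid catabolism and the urea cycle tested, 16 fell and 6 rose (median -0.42), and 3 rose without replicate 12 of HFD-NS or 26 of HFD-337. Cps1, the first enzyme of the urea cycle, fell from 2282, 3113 and 3369 to 630.1, 1497 and 1202 CPM (log2 fold change -1.40 with SE 0.244, adjusted p = 0.000354) and spans 108 kb. Tdo2, which opens the ring of tryptophan, fell from 1663, 1910.5 and 2112 to 579, 872 and 806 CPM (log2 fold change -1.33 with SE 0.152, adjusted p = 1.32e-06). Mat1a, which makes S-adenosylmethionine, fell from 3840.3, 5263 and 4759.6 to 2102, 2959 and 1424 CPM (log2 fold change -1.10 with SE 0.196, adjusted p = 0.000238). Otc, the next enzyme of the urea cycle after Cps1, rose from 597, 622 and 739 to 817, 961 and 979 CPM (log2 fold change 0.49 with SE 0.138, adjusted p = 0.00658). Prodh2, a hydroxyproline dehydrogenase, rose from 155, 165 and 184 to 270.1, 344 and 304 CPM (log2 fold change 0.86 with SE 0.121, adjusted p = 1.27e-05). Thus the first 2 steps of the urea cycle moved in opposite directions.

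Of 45 genes of cytochrome P450 families 1 to 3 tested, 12 fell and 6 rose, and of 46 conjugation enzymes 12 fell and 5 rose. The falls, 26.7% and 26.1% of the lists, are near the 22.8% of all genes tested, and the rises, 13.3% and 10.9%, are under the 24.4%. The conjugation rises were 1 without HFD-NS animal 12 or HFD-337 animal 23 and 3 without HFD-NS animal 13 or HFD-337 animal 26, and both lists hold close copies whose reads may be split. Cyp2c39 fell from 14.5, 23.3 and 17.5 to 3.74, 5.07 and 0.406 CPM (log2 fold change -2.44 with SE 0.428, adjusted p = 0.0005), and Cyp2c23, an epoxygenase of arachidonic acid, rose from 147, 141 and 189 to 369.8, 409 and 516 (log2 fold change 1.44 with SE 0.149, adjusted p = 7.57e-07). Ugt3a1, a glycosyltransferase, fell from 85.6, 92.3 and 85.7 to 7.68, 18.2 and 17.3 CPM (log2 fold change -2.58 with SE 0.223, adjusted p = 6.47e-07). Cyp2b10, the classical target of the receptor CAR, was at 2.92, 3.72 and 3.58 CPM in HFD-NS and 0, 0.576 and 0.406 in HFD-337 (adjusted p = 0.000278), close to the limit of detection there.

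Counts for the stress response lists were near or under the 24.4% higher and 22.8% lower of all genes tested, or a little above them for p53 targets. Of 30 genes of the unfolded protein and integrated stress responses, 7 fell and 5 rose, of 28 NRF2 targets and antioxidant genes 5 fell and 5 rose, and of 21 p53 targets 6 fell and 6 rose. Of the unfolded protein list, 2 to 3 rose without HFD-NS animal 13 or 16 or HFD-337 animal 23 or 27, and 12 fell without HFD-NS animal 16. The NRF2 rises went from 5 to 3 without HFD-337 replicate 27. Dnajb9, a chaperone of the endoplasmic reticulum, fell from 184, 183 and 116 to 54, 32.7 and 30.6 CPM (log2 fold change -2.05 with SE 0.256, adjusted p = 3.86e-05). Herpud1, a factor of protein disposal there, fell from 866, 831 and 626 to 273, 323 and 276 CPM (log2 fold change -1.41 with SE 0.213, adjusted p = 9.35e-05). Atf4, the transcription factor of the integrated stress response, rose from 121, 90.5 and 75.9 to 145, 134 and 193 CPM (log2 fold change 0.71 with SE 0.163, adjusted p = 0.00199), while Trib3, one of its targets, fell (log2 fold change -1.24, adjusted p = 0.00352). Cdkn1a, the cell cycle inhibitor p21, fell from 91.7, 57.9 and 39.7 to 21.3, 19.9 and 10.3 CPM (log2 fold change -1.85 with SE 0.374, adjusted p = 0.00187), and Bax, which opens the mitochondrial outer membrane, rose (10.5, 11.9 and 9.59 to 22.1, 18.6 and 17.5 CPM, adjusted p = 0.000305). Hmox1, heme oxygenase, fell from 17.3, 19 and 15.1 to 8.86, 4.38 and 7.51 CPM (log2 fold change -1.36 with SE 0.293, adjusted p = 0.00128). Gdf15, a stress-induced hormone, did not pass (adjusted p = 0.671).

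Among 34 hepatocyte transcription factors and nuclear receptors, 10 rose and 9 fell, near the background shares. Hnf4a, a master regulator of hepatocyte identity, fell from 676, 665 and 612 to 359, 398 and 414 CPM (log2 fold change -0.74 with SE 0.109, adjusted p = 2.15e-05), and Nr5a2, a receptor that drives bile acid synthesis, by a log2 fold change of -0.78 (adjusted p = 0.00011). Esrra, a nuclear receptor of mitochondrial gene expression, rose from 11.1, 9.19 and 13 to 27.8, 29.2 and 30.6 CPM (log2 fold change 1.39 with SE 0.138, adjusted p = 3.03e-07). In the insulin, leptin and glucagon list, whose median span was 58.3 kb, 16 of 29 genes fell and 7 rose (median -0.36). Pdpk1, a kinase that activates AKT, fell from 40.3, 42.1 and 42 to 19.9, 22.6 and 26.8 CPM (log2 fold change -0.85 with SE 0.112, adjusted p = 6.99e-06). Irs2, an insulin receptor substrate, fell from 19.7, 16.1 and 18.2 to 11.6, 8.88 and 8.32 CPM (log2 fold change -0.92 with SE 0.196, adjusted p = 0.0008). Gcgr, the glucagon receptor, rose from 169.9, 158 and 169 to 293, 277 and 302 CPM (log2 fold change 0.81 with SE 0.087, adjusted p = 7.1e-07).

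In the growth hormone and IGF axis 7 of 22 genes rose and 7 fell (31.8% each, beside 24.4% and 22.8% of all genes tested). Ghr, the growth hormone receptor, fell from 659, 604 and 706 to 286, 417 and 372 CPM (log2 fold change -0.87 with SE 0.145, adjusted p = 7.96e-05). Cish, a feedback inhibitor induced by growth hormone, was at 14.2, 1.86 and 13 CPM in HFD-NS and 54.5, 20.6 and 58 in HFD-337 (log2 fold change 2.15 with SE 0.567, adjusted p = 0.0094), a call lost in a fit of the 2 groups alone (0.0799). Igfbp1, an IGF-binding protein that insulin lowers, fell from 39.4, 48.3 and 18.2 to 5.91, 13 and 6.29 CPM (log2 fold change -1.98 with SE 0.479, adjusted p = 0.00586), and Igfbp2 rose from 146, 157 and 129.6 to 225, 532 and 499 (log2 fold change 1.54 with SE 0.257, adjusted p = 0.000357). Among 21 clock genes, 5 rose and 5 fell (23.8% each, near the shares of all genes tested). The rises were 3 without HFD-NS animal 13 and 8 without animal 16. Per2 rose from 25.7, 23.5 and 33.4 to 58.5, 56.6 and 81.2 CPM (log2 fold change 1.24 with SE 0.172, adjusted p = 1.8e-05), and Nfil3, a repressor that opposes the output factor DBP, fell from 48.2, 35.4 and 24 to 14.6, 13.6 and 7.92 (log2 fold change -1.55 with SE 0.27, adjusted p = 0.000349). Dbp itself varied from animal to animal in HFD-NS, at 7.47, 19.7 and 57.7 CPM, against 95.7, 74.1 and 104 in HFD-337 (adjusted p = 0.0348), and leaving out HFD-NS replicate 12 or 13, or animal 23 or 27 ended its call (0.064, 0.112, 0.0702 and 0.0831). Its exons share 32.1% of their length with Sphk2. The hour at which livers were taken is not given in the sources used here.

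Type I interferon acts through a receptor that leads STAT2 and IRF9 into a factor that binds the interferon-stimulated response element. In HFD-337, 43 of 55 interferon-stimulated genes tested rose and 1 fell, with a median log2 fold change of 0.95, and 26 rose at least 2-fold. The 3 libraries of HFD-337 lay wholly above those of HFD-NS in 43 of them, against 27.1% of all genes. Of the 28 members spanning 10 to 50 kb, 20 rose (71.4%), where 22.4% of all genes of that span did. The core of the response element, read here as GAAA and GAAA again after any pair of bases, on either strand, lay in the promoters (250 bases before to 50 after the start) of 21 of 41 tested members with a RefSeq promoter (51.2%), and of 3.99% of all 27025 genes with such a promoter. Among the 32 of them that rose it lay in 17 (53.1%). The 150 bases before the start are shown for 3 members that rose and 1 that did not pass, 5′ to 3′ along the gene's own strand, from RefSeq on GRCm38.p6, with matches to the core in capitals. The positions are chr4:156200819-156200968 (minus strand) for Isg15, chr19:34640739-34640888 (plus) for Ifit1, chr8:71537473-71537622 (minus) for Bst2 and chr5:120777660-120777809 (minus) for Oas3.
Isg15: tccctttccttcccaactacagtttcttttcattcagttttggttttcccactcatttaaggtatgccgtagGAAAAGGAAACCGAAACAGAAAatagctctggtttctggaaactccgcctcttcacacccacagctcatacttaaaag
Ifit1: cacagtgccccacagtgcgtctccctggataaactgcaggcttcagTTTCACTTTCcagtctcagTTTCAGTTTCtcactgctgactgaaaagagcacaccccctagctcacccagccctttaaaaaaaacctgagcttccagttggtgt
Bst2: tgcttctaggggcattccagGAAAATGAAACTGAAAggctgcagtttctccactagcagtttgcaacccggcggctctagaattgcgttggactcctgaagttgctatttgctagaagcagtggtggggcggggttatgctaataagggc
Oas3: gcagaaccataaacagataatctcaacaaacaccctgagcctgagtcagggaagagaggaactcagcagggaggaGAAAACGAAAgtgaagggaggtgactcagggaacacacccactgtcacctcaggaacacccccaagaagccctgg
In Isg15 and Bst2 neighbouring matches overlap into 1 run, in Ifit1 a pair of matches reads on the other strand, and Oas3 holds a single match. The matches describe the letters only. Oas3, Irf9 and B2m are named after their values were seen.

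Isg15, a ubiquitin-like protein, rose from 13.4, 15.4 and 13.3 to 75.4, 98 and 69 CPM (log2 fold change 2.53 with SE 0.248, adjusted p = 2.44e-06). Ifit1, which binds foreign RNA caps, rose from 39.1, 48.7 and 44.1 to 307, 413 and 232 CPM (log2 fold change 2.85 with SE 0.31, adjusted p = 1.88e-05). Bst2, the tetherin that holds budding virus, rose from 63.9, 64.6 and 66.2 to 116, 146 and 151 CPM (log2 fold change 1.08 with SE 0.145, adjusted p = 1.21e-05). Oas3, which makes the activator of RNase L, was at 1.87, 2.61 and 2 CPM in HFD-NS and 4.73, 2.54 and 1.22 in HFD-337, and the groups overlapped (log2 fold change 0.38 with SE 0.393, adjusted p = 0.445). Of the signalling parts, Stat2 rose from 104, 97.8 and 98 to 234, 219 and 206 CPM (log2 fold change 1.14 with SE 0.0924, adjusted p = 3.64e-08). Irf9 rose from 53.7, 51.3 and 55.9 to 93.1, 107 and 96.2 CPM (log2 fold change 0.88 with SE 0.105, adjusted p = 2.13e-06). Irf7, an amplifier of the response, rose from 22, 34.9 and 29.5 to 84.9, 88.1 and 77.5 CPM (log2 fold change 1.54 with SE 0.249, adjusted p = 0.000253). B2m, the light chain of class I MHC, rose from 2389.9, 2486 and 2627 to 5495, 5028 and 5203 CPM (log2 fold change 1.07 with SE 0.115, adjusted p = 7.1e-07). Gbp2, a guanylate-binding protein strongly induced by interferon gamma, was the 1 member that fell, from 7.71, 24.6 and 25.4 to 6.1, 8.64 and 5.28 CPM with 1 low HFD-NS library (log2 fold change -1.48 with SE 0.393, adjusted p = 0.00745), a call lost in the fit of the 2 groups alone (adjusted p = 0.0522). Against the same HFD-NS libraries the median log2 fold change of the list was 0.45 in HFD-338, and these comparisons share their controls.

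Of 18 nucleic acid sensors and adaptors, 7 rose and 3 fell (38.9% and 16.7%, beside 24.4% and 22.8% of all genes tested). Their median log2 fold change, -0.06, lay between -0.21 and 0.08 over all settings. Ifih1, Ddx58, Zbp1 and Eif2ak2 are also members of the interferon-stimulated list, so the counts of the lists are not independent. Zbp1, a sensor of Z-form nucleic acid, rose from 9.57, 17 and 11.3 to 50.2, 46.2 and 35.1 CPM (log2 fold change 1.80 with SE 0.251, adjusted p = 4.16e-05). Tlr3, the receptor for double-stranded RNA, rose from 9.22, 11.7 and 10.6 to 17.9, 17.4 and 19.5 CPM (log2 fold change 0.79 with SE 0.133, adjusted p = 8.21e-05). Unc93b1, which delivers such receptors to endosomes, rose from 17.2, 22.8 and 21.1 to 43.9, 35.2 and 40 CPM (log2 fold change 0.96 with SE 0.133, adjusted p = 1.18e-05). Tlr8 fell from 2.45, 3.97 and 5.06 to 1.18, 1.04 and 1.01 CPM (log2 fold change -1.82 with SE 0.4, adjusted p = 0.000919). Tlr9, the receptor for CpG DNA, was too low to be tested. Of 28 cytokines, chemokines and their receptors tested, 8 fell and 4 rose (median -0.43). Those shares were 28.6% and 14.3%, beside 22.8% and 24.4% of all genes tested. Only 3 fell without HFD-NS animal 13 or HFD-337 animal 26 or 27, and 1 to 2 rose without HFD-NS animal 12 or 16 or HFD-337 animal 23. Ccl2, which attracts monocytes, fell from 5.84, 4.97 and 3.16 to 0.984, 0.922 and 0.812 CPM (log2 fold change -2.33 with SE 0.419, adjusted p = 0.000153). Cxcl10, a chemokine induced by interferons, was at 15.9, 20.6 and 14.7 CPM in HFD-NS and 11.8, 19.5 and 14.4 in HFD-337 and did not pass (adjusted p = 0.591).

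Complement and coagulation genes rose in 16 of 36 cases and fell in 7 (median 0.28). F11, coagulation factor XI, rose from 44.1, 57 and 71.6 to 205, 206 and 179.6 CPM (log2 fold change 1.77 with SE 0.15, adjusted p = 1.19e-07). C9, which forms the membrane pore, rose from 402, 369 and 342 to 880.3, 742 and 1715 CPM (log2 fold change 1.58 with SE 0.243, adjusted p = 0.00014). C8a, its partner, rose from 523, 499 and 508 to 1018, 823 and 1336 CPM (log2 fold change 1.05 with SE 0.205, adjusted p = 0.000672). F13b, the carrier subunit of factor XIII, fell from 231, 249 and 246 to 90.8, 123 and 121 CPM (log2 fold change -1.12 with SE 0.115, adjusted p = 4.45e-07). Of 30 acute phase genes, 7 fell, near the background, and 4 rose (13.3%, under the 24.4% of all genes tested), with 2 rises without HFD-NS animal 12 and 7 without HFD-337 animal 26. Hpx, the heme scavenger hemopexin, rose from 2834, 4200.1 and 2993 to 6819.6, 5022 and 7482 CPM (log2 fold change 0.95 with SE 0.19, adjusted p = 0.000624), and Il6ra, the interleukin-6 receptor, fell from 36.2, 65.2 and 58 to 15.8, 20.6 and 14.2 (log2 fold change -1.63 with SE 0.215, adjusted p = 2.15e-05). Saa1, serum amyloid A, was at 186, 384 and 179 CPM in HFD-NS and 613, 117 and 646 in HFD-337 and did not pass (adjusted p = 0.442), with animal 26 far under its group.

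Markers of the cells that line hepatic sinusoids were lower. In RNA of whole liver, fewer cells of a type and less RNA per cell cannot be told apart. Of 21 markers of liver sinusoidal endothelium, 16 fell and none rose (median log2 fold change -1.37), and 14 of the falls were at least 2-fold. Their summed level was 1184 to 1354 CPM in HFD-NS and 765 to 984 in HFD-337, and none was at 0 in all 6 libraries. Lyve1, a hyaluronan receptor, fell from 23.4, 23.2 and 18.4 to 4.53, 3.8 and 2.84 CPM (log2 fold change -2.53 with SE 0.226, adjusted p = 9.05e-08). F8, coagulation factor VIII, fell from 16.3, 21 and 11.6 to 3.15, 3.69 and 3.25 CPM (log2 fold change -2.25 with SE 0.287, adjusted p = 7.03e-06). Dnase1l3, a secreted nuclease, fell from 36.9, 46.7 and 34.9 to 7.68, 7.72 and 10.1 CPM (log2 fold change -2.22 with SE 0.281, adjusted p = 2.36e-05). Stab1, a scavenger receptor that takes up oligonucleotides, fell from 32, 30.9 and 33.5 to 19.1, 15.6 and 19.7 CPM (log2 fold change -0.84 with SE 0.19, adjusted p = 0.00155). Its relative Stab2 was at 37.5, 48.2 and 35.2 CPM in HFD-NS and 35.2, 19 and 22.3 in HFD-337 (log2 fold change -0.68 with SE 0.255, adjusted p = 0.044), a call lost without HFD-337 replicate 26 (0.17) or 27 (0.111) or HFD-NS replicate 12 (0.0634) or 13 (0.146). The 10 falls among 13 markers spanning 10 to 50 kb (76.9%) stand beside 21.9% of all genes of that span.

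General endothelial markers fell in 9 of 16 cases and rose in 1 (median -1). Their summed level was 152 to 170.4 CPM in HFD-NS and 97.3 to 123 in HFD-337. Pecam1, the adhesion molecule of all endothelium, fell from 15.8, 22.3 and 15.5 to 5.32, 3.69 and 3.86 CPM (log2 fold change -2.08 with SE 0.261, adjusted p = 6.04e-06). Cdh5, the endothelial cadherin, fell from 22, 19 and 17.1 to 8.07, 4.26 and 5.89 CPM (log2 fold change -1.72 with SE 0.367, adjusted p = 0.00183). Stellate cell and myofibroblast markers fell in 9 of 20 cases and rose in 1 (median -0.68), with sums of 588 to 659 CPM in HFD-NS and 266 to 439 in HFD-337. Reln, a matrix glycoprotein of stellate cells, fell from 64.7, 64.4 and 57.2 to 27, 18.1 and 25.4 CPM (log2 fold change -1.42 with SE 0.208, adjusted p = 6.72e-05). Dcn, the proteoglycan decorin, fell from 215, 228 and 185 to 117, 81.5 and 59.1 CPM (log2 fold change -1.29 with SE 0.211, adjusted p = 0.000207). Hgf, the hepatocyte growth factor, fell from 6.66, 8.69 and 6.32 to 1.38, 1.84 and 0.812 CPM (log2 fold change -2.32 with SE 0.54, adjusted p = 0.00269). Extracellular matrix genes fell in 15 of 38 cases and rose in 2 (median -0.53), and 23 fell without HFD-337 replicate 23. Postn, periostin, fell from 13.5, 14.4 and 14.4 to 4.92, 4.03 and 3.86 CPM (log2 fold change -1.73 with SE 0.346, adjusted p = 0.000841), while Col1a1, a fibrillar collagen, was at 17.5, 18.4 and 8.64 CPM in HFD-NS and 37.2, 10 and 7.92 in HFD-337 and did not pass (adjusted p = 0.702).

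Kupffer cell markers fell in 6 of 19 cases and none rose (median -0.86), with sums of 509 to 633 CPM in HFD-NS and 285 to 481 in HFD-337. The falls were 31.6% of the list, beside 22.8% of all genes tested. Their count was 3 without HFD-337 replicate 26. Csf1r, the receptor that keeps macrophages alive, fell from 18.7, 29.6 and 26.6 to 15.2, 5.65 and 9.13 CPM (log2 fold change -1.38 with SE 0.381, adjusted p = 0.0106). Slc40a1, the iron exporter ferroportin, which hepatocytes also express, fell from 186, 188 and 214 to 111, 102 and 97.4 CPM (log2 fold change -0.92 with SE 0.134, adjusted p = 1.92e-05). Adgre1, the F4/80 antigen, fell from 9.46, 13.7 and 12.3 to 8.07, 3.69 and 6.49 CPM (log2 fold change -1.02 with SE 0.346, adjusted p = 0.0253), a call lost without HFD-337 replicate 26 (0.137) or HFD-NS replicate 13 (0.0768) or 16 (0.0613). Clec4f, the most specific Kupffer cell lectin in mice, was at 48.9, 38.1 and 28.7 CPM in HFD-NS and 25, 11.4 and 17 in HFD-337 and did not pass (adjusted p = 0.105), but did in a fit of the 2 groups alone (0.026). Markers of recruited and lipid-laden macrophages rose in 4 of 20 cases and fell in 2, shares under the 24.4% and 22.8% of all genes tested. The rises were 1 to 2 without HFD-NS animal 12 or 16 or HFD-337 animal 23. The median log2 fold change of this list, 0.08, lay between -0.29 and 0.5 over all settings. Ms4a7, a membrane protein of such macrophages, rose from 0.701, 0.993 and 0.949 to 5.51, 1.73 and 2.84 CPM (log2 fold change 1.83 with SE 0.423, adjusted p = 0.00142).

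Bile duct markers rose in 5 of 13 cases and fell in 1 (median 1.13), with sums of 84.1 to 118 CPM in HFD-NS and 147 to 333 in HFD-337, highest in animal 23, and 3 rose without HFD-NS animal 13 or 16 or HFD-337 animal 23. Those shares, 38.5% and 7.69%, stand beside 24.4% and 22.8% of all genes tested. Cdh1, whose levels are given above, is in this list and in that of periportal hepatocyte genes, and its rise is a large part of the list's sums in animal 26. Other members are shared too, such as Spp1 with the lists of cytokines and of recruited and lipid-laden macrophages. Of the defining epithelial genes, Epcam was at 1.28, 0.869 and 0.527 CPM in HFD-NS and 3.74, 1.27 and 1.42 in HFD-337, with a call lost without animal 23 (adjusted p = 0.299), and Krt19 at 0.35, 0.248 and 0.422 in HFD-NS and 1.38, 1.15 and 0.203 in HFD-337, which did not pass (adjusted p = 0.0825). Krt23, a keratin of reactive liver cells, fell from 6.42, 3.97 and 8.43 to 1.77, 1.15 and 0.812 CPM (log2 fold change -2.34 with SE 0.412, adjusted p = 0.000133). In a list of fetal and secreted epithelial genes 3 of 21 rose and 2 fell, shares under those of all genes tested. Of these, Tff3, a trefoil peptide, rose from 0.35, 0.497 and 0.316 to 7.68, 3.69 and 8.32 CPM (log2 fold change 3.99 with SE 0.464, adjusted p = 1.41e-06). Most markers of T and NK cells, B and plasma cells and neutrophils were near the limit of detection. Of 16 T and NK cell markers 7 could be tested, of 13 B and plasma cell markers 5, and of 14 neutrophil markers 3, and of these 1 rose and 1 fell, both B or plasma cell markers. Of 14 pancreas and muscle genes, 7 were at 0 in all 6 libraries, as was the plasma cell receptor gene Tnfrsf17. Of 10 red cell markers tested, 2 rose, a share under the 24.4% of all genes tested. The list summed to 227 to 321 CPM in HFD-NS and to 913, 421 and 256 in HFD-337.

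The lists of hepatocyte zones held both directions. Pericentral genes rose in 7 of 20 cases and fell in 4, and periportal genes rose in 3 of 16 and fell in 3. The share of pericentral rises was above the 24.4% of all genes tested, and that of pericentral falls was under the 22.8%. Both periportal shares were under those of all genes tested. The pericentral median log2 fold change, 0.02, lay between -0.11 and 0.07 over all settings. Of the periportal genes 1 rose without HFD-NS animal 12 or HFD-337 animal 26, and 5 fell without HFD-337 animal 26 or 27. Lgr5, a receptor of the pericentral Wnt response, rose from 5.72, 8.57 and 6.01 to 21.9, 15.4 and 11.6 CPM (log2 fold change 1.27 with SE 0.228, adjusted p = 0.000164). Sp5, a Wnt target, rose from 1.05, 1.61 and 1.37 to 4.92, 3.57 and 3.04 CPM (log2 fold change 1.5 with SE 0.334, adjusted p = 0.00107). Glul, the glutamine synthetase that marks the innermost hepatocytes, fell from 1786, 1838 and 1615 to 1338, 1329 and 922 CPM (log2 fold change -0.55 with SE 0.15, adjusted p = 0.0057). Cyp2e1, an alcohol-oxidising P450 of the same zone, fell from 12104, 13387 and 13737 to 6095, 10540.0 and 8174 CPM (log2 fold change -0.66 with SE 0.164, adjusted p = 0.00267). Glul and Cyp2e1 thus moved opposite to Lgr5 and Sp5, within the same list.

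Of 70 cytosolic ribosomal protein genes tested, 58 rose, 1 fell and 11 were not called (median log2 fold change 0.76, median span 3.14 kb). Among the 67 under 10 kb, 82.1% rose, where 40.0% of all genes of that span did. Rplp1, an acidic stalk protein of the large subunit, rose from 139.5, 124 and 149 to 383, 336 and 415 CPM (log2 fold change 1.46 with SE 0.101, adjusted p = 6.41e-09). Rpl38 rose from 98.6, 87.3 and 98 to 314, 248 and 290.2 CPM (log2 fold change 1.58 with SE 0.118, adjusted p = 1.38e-08). Rps12 rose from 113, 104 and 119 to 359, 295 and 348 CPM (log2 fold change 1.58 with SE 0.118, adjusted p = 1.55e-08). Rps4x was the 1 that fell, from 156, 179 and 185 to 110.1, 140.3 and 149 CPM (log2 fold change -0.38 with SE 0.108, adjusted p = 0.00711). These genes have many processed pseudogenes, and reads shared with those copies make single values uncertain.

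Of 57 nuclear-encoded respiratory chain genes tested, 31 rose and 9 fell (median 0.30, median span 7.08 kb), and 5 fell without HFD-337 replicate 23. Among the 39 under 10 kb, 28 rose and 3 fell, and among the 17 of 10 to 50 kb, 3 rose and 6 fell. Uqcrq, a small subunit of complex III, rose from 247, 217 and 247 to 568, 524 and 489.9 CPM (log2 fold change 1.15 with SE 0.11, adjusted p = 1.98e-07). Atp5e, a small subunit of ATP synthase, rose from 145, 122 and 143 to 304, 325 and 289.8 CPM (log2 fold change 1.16 with SE 0.115, adjusted p = 2.82e-07). Sdha, the catalytic subunit of complex II, fell from 507, 475 and 481 to 268, 319.6 and 283 CPM (log2 fold change -0.75 with SE 0.0976, adjusted p = 5.98e-06). Ndufs1, a large subunit of complex I, fell from 139.7, 138 and 138 to 77.2, 98 and 80.2 CPM (log2 fold change -0.70 with SE 0.11, adjusted p = 4.26e-05). Proteasome genes rose in 10 of 31 cases (32.3%) and fell in 7 (22.6%). Cell cycle genes rose in 9 of 35 (25.7%) and fell in 2 (5.71%), beside 24.4% and 22.8% of all genes tested. The cell cycle rises were 4 without replicate 13 of HFD-NS and 5 without 23 of HFD-337. Mki67, a marker of dividing cells, was at 3.74, 3.35 and 3.9 CPM in HFD-NS and 14.6, 2.88 and 2.44 in HFD-337, high in animal 23 alone, and did not pass (adjusted p = 0.299).

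Handling of oligonucleotides was covered by 21 genes of RNase H, uptake and trafficking, of which 5 rose and 6 fell. Those shares, 23.8% and 28.6%, were near the 24.4% and 22.8% of all genes tested. Rab5a, a GTPase of early endosomes, fell from 62.5, 55.1 and 56.6 to 15, 22.5 and 22.7 CPM (log2 fold change -1.52 with SE 0.141, adjusted p = 1.47e-07). The asialoglycoprotein receptor genes Asgr1 and Asgr2, which give hepatocytes their uptake route for galactose-tagged cargo, rose from 452, 473 and 479 to 577, 721 and 694 and from 183, 205 and 226 to 322, 413 and 398 CPM (log2 fold changes 0.5 and 0.88, adjusted p = 0.000384 and 3.03e-06). Lysosome and autophagy genes fell in 12 of 37 cases and rose in 6, or in 3 without HFD-337 replicate 27. With all libraries the shares were 32.4% and 16.2%, beside 22.8% and 24.4% of all genes tested. Lipa, the lysosomal acid lipase, fell from 295, 281 and 255 to 129.8, 136 and 113 CPM (log2 fold change -1.13 with SE 0.115, adjusted p = 3.94e-07). Ctsd, cathepsin D, fell from 315, 315 and 287 to 183, 176 and 169 CPM (log2 fold change -0.80 with SE 0.108, adjusted p = 8.4e-06).

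A direct test set HFD-337 against HFD-338, the other group in which Stk25 was low, to show where HFD-337 differed from it. Stk25 was at 22, 21.9 and 20.5 CPM in HFD-338 animals 17, 18 and 19, and HFD-337 was lower (log2 fold change -0.29 with SE 0.119, adjusted p = 0.045). The test called 7701 genes (58.4%), 3794 higher (28.8%) and 3907 lower (29.6%) in HFD-337. Gbe1 was at 85.4, 92.8 and 91.2 CPM in HFD-338, well above HFD-337 (log2 fold change -2.65 with SE 0.132, adjusted p = 2.65e-10), and so were Abhd2 at 36.4, 42.4 and 31 (log2 fold change -3.06 with SE 0.342, adjusted p = 9.41e-06) and Megf9 at 13.1, 14.3 and 12.7 (log2 fold change -2.97 with SE 0.244, adjusted p = 2.96e-08). Stk24 was at 21.1, 22.5 and 19.6 CPM in HFD-338 (log2 fold change -0.60 with SE 0.14, adjusted p = 0.00137), and Apob at 6082, 7094 and 6473 (log2 fold change -1.16 with SE 0.119, adjusted p = 3.13e-07). By contrast, Cyp17a1 was at 5.93, 5.32 and 6.41 CPM in HFD-338 (adjusted p = 0.236), and Slc25a21 at 2.05, 1.48 and 4.19 (adjusted p = 0.839), and these differences did not pass. Their log2 fold changes were 0.52 and 0.09.

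Several of the largest differences from HFD-338 were in genes near the limit of detection in both HFD-NS and HFD-337. Mmp7, a matrix metalloprotease of epithelium, was at 0, 0.372 and 0.316 CPM in HFD-NS, 0.591, 0.231 and 0 in HFD-337 and as high as 21.5, 19.3 and 22.8 in HFD-338 (log2 fold change -6.21 with SE 0.483, adjusted p = 1.58e-08). Gpc3, a fetal liver proteoglycan, was at 0.394, 0.576 and 0.812 CPM in HFD-337 against 41.7, 67.5 and 23.4 in HFD-338 (log2 fold change -6.19 with SE 0.505, adjusted p = 2.56e-07), and Slc7a11, the cystine importer, at 0.197, 0.115 and 0.406 and at 15.1, 20.5 and 3.8 (log2 fold change -5.82 with SE 0.803, adjusted p = 2.38e-05). Of the genes higher in HFD-337, Sult5a1, a sulfotransferase, was at 17.9, 15.9 and 61.9 CPM against 0.456, 0.866 and 0.785 (log2 fold change 5.45 with SE 0.726, adjusted p = 7.63e-05), and Mup7, a major urinary protein from a family of close copies, at 244, 68.2 and 2715 CPM against 17.3, 13.1 and 19.9 (log2 fold change 5.91 with SE 1.51, adjusted p = 0.00665), highest in animal 27. In extracellular matrix genes 32 of 38 were lower in HFD-337 than in HFD-338 and 3 higher, in Kupffer cell markers 14 of 19 lower and none higher, and in cell cycle genes 25 of 35 lower and 2 higher. In sinusoidal endothelium 14 of 21 markers were lower and none higher, and Lyve1 was at 9.69, 8.41 and 5.63 CPM in HFD-338 (log2 fold change -1.08 with SE 0.249, adjusted p = 0.0011). Interferon-stimulated genes were higher in 26 of 55 cases and lower in 7, with Isg15 at 27.5, 20.4 and 17.3 CPM in HFD-338 (log2 fold change 1.90 with SE 0.239, adjusted p = 1.71e-05). Respiratory chain genes were higher in 43 of 57 cases and lower in 2. Of 27 mitochondrial fatty acid oxidation genes 5 were higher and 9 lower, and of 22 peroxisomal genes 9 and 4. Of 21 omega-hydroxylases and PPAR alpha targets 2 were higher and 5 lower, and of 31 droplet, lipase and fat uptake genes 13 and 9. Against the same HFD-NS libraries, HFD-338 had median log2 fold changes of -0.54, -0.6, -0.79 and -0.7 in these lists, in that order.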

How the data were processed

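Libraries were made from polyadenylated RNA of liver extracted with TRIzol, per the labels' protocols. Whole-number counts per gene were deposited by the authors, made with featureCounts 2.0.1 on mm39 without strand and with reads in overlapping genes counted for each, per the file headers. Trim Galore 0.6.10, Bowtie 1.3.1 and STAR 2.7.10b are named in the submitters' processing notes. A TPM table, whose 15 sample columns are not tied to the labels, was not used. Of 26264 genes, 13189 passed edgeR's count filter and 6882 had no count. One edgeR 4.0.16 quasi-likelihood fit (R 4.3.3) held all 15 libraries in 5 groups. On simulated counts for HFD-337 against HFD-NS (12881 genes) it recovered 43.3% of 1.5-fold, 82.1% of 2-fold and 97% of 4-fold changes, and 6.92% of calls were false. The simulation changed only 67, 67 and 66 genes at these folds, all averaging at least 5 CPM. The data themselves gave calls in 47.2% of genes, so the rates may not hold for them or for genes at lower levels. Alternatives were RLE scaling, no filter, DESeq2 1.42.0, limma-voom (limma 3.58.1) with quality weights, the 2 groups alone, log2(TPM + 1) with TPM computed from the counts, and each library left out. Promoters came from RefSeq on GRCm38.p6, another build than the counts. The comparison and gene lists were chosen with earlier results of these data known. Named were the 12 largest rises and 12 largest falls (called, at least 5 CPM, no overlap), up to 4 called members a direction in each list (at least 1 CPM), the 6 largest differences each way from HFD-338, and a fixed set of liver genes. Some genes are not reported here.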

Additional observations from a re-analysis of the deposited data

How the results depend on the processing

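No called gene changed direction under any alternative, and 5075 to 6155 of the 6220 genes called against HFD-NS were called again under the scalings, filters and tools tried. In limma on log2(TPM + 1), the count of genes at least 2-fold higher was 472 in place of 962, and that of genes higher than in HFD-338 was 2194 in place of 3794. That alternative changed scaling, gene filter, pseudocount and test together, and the cause was not tested. When 1 library was left out, 2669 to 2935 genes were higher and 2620 to 2876 lower than in HFD-NS, with 851 to 1037 and 806 to 1045 of them past 2-fold. Against HFD-338 the ranges were 3288 to 3775 higher and 3488 to 3868 lower. Of the values of gene lists under all alternatives, 1058 stayed within 1.5-fold of the count reported and 142 did not. Of the values of named genes, 3711 kept their side of the threshold, 331 lost the call, 21 gained it and none reversed. No paired analysis was possible because the groups share no animal numbers. At 4681937 to 9797743 counts a library, changes under 1.5-fold and genes under about 1 CPM were often not detectable.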
